A study of Homo sapiens with 4 samples.

Results

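The clustered histone genes are the entries of the count table whose symbol begins with HIST1H, HIST2H, HIST3H or HIST4H. There were 71 of them among 28930 gene symbols, of which 55 belong to the HIST1 cluster, 12 to HIST2, 3 to HIST3 and 1 to HIST4. By product, 6 encode linker histone H1, 17 H2A, 18 H2B, 15 H3 and 15 H4. The counts come from RNA sequencing of MDA-MB-231, an established line of mesenchymal-like cells from a human breast tumour that lacks hormone receptors and HER2 amplification. A pair of libraries came from cells given siRNA against hTrmt13 (knockdown) and a pair from cells that the labels call siControl (control). hTrmt13, the product of TRMT13, is a methyltransferase of tRNA ribose, and the study asked which transcripts differ when it is reduced. The labels do not say whether replicates were separate cultures, so the p-values cover only the variation among these 4 libraries, part of which may be technical.

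Most clustered histone genes are switched on in S phase, when new nucleosomes are assembled on replicated DNA. Their mRNAs have no introns and no poly(A) tail, and end instead at a conserved stem-loop that is bound by the stem-loop binding protein SLBP. Some of them also give longer, polyadenylated transcripts that run past the stem-loop, which are best known from differentiated and non-dividing cells. Libraries that select poly(A) RNA see mainly the second kind. The labels name an Illumina TruSeq RNA kit and total RNA, but the selection step is not given in the sources used here.

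The stem-loop was found in a GENCODE release 29 transcript of 31 of the 71 genes, in 5 spellings. The models of the other 40 hold no match, and a model that stops at or near the coding region cannot hold one. The sites below, printed 5′ to 3′ as DNA on the transcript strand, belong to genes with counts described here. The capitals mark the 16 bases of the stem-loop.
HIST1H2AC: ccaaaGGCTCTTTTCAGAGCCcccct
HIST1H2BD: ccaaaGGCTCTTTTAAGAGCCacgca
HIST1H2BC: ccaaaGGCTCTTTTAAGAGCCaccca
HIST2H2BE: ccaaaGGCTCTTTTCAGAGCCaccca
HIST2H2BF: ccaaaGGCTCTTTTCAGAGCCacttc
HIST1H3H: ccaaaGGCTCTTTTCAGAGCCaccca
HIST1H2AG: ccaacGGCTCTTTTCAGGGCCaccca
HIST1H4H: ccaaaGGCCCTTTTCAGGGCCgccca
HIST4H4: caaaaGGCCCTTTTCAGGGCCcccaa
HIST1H2AC, HIST2H2BE, HIST2H2BF and HIST1H3H carried the spelling that 17 genes share. HIST1H2BD and HIST1H2BC carried a spelling found in 5 genes. HIST1H4H and HIST4H4 carried a spelling that 5 H4 genes share. HIST1H2AG alone carried its spelling.

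Start regions are shown for the 4 genes with the most counts, which make up most of the summed histone signal. Each window runs from 250 bases before to 50 bases after the RefSeq start on GRCh38.p14, a later build than the hg19 of the submitters' notes. The windows are chr6:26123922-26124221 on the plus strand for HIST1H2AC, chr6:26056421-26056720 on the minus strand for HIST1H1C, chr6:26157871-26158170 on the plus strand for HIST1H2BD and chr6:27146809-27147108 on the minus strand for HIST1H2BK. Capitals mark the CCAAT box motif CCAAT, the TATA box motif TATAAA, the octamer ATTTGCAT and the H1 box AAACACA on either strand.
HIST1H2AC: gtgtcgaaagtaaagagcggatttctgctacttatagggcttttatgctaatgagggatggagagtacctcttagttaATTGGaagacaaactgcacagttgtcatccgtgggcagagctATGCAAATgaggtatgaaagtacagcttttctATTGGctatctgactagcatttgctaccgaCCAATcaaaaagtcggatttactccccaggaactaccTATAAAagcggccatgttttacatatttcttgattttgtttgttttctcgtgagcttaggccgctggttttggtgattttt
HIST1H1C: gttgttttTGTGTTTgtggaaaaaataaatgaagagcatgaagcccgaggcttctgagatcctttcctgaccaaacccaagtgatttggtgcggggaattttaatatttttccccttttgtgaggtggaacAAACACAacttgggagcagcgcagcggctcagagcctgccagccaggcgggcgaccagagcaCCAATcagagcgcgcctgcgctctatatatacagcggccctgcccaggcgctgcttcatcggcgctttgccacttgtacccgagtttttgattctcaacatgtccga
HIST1H2BD: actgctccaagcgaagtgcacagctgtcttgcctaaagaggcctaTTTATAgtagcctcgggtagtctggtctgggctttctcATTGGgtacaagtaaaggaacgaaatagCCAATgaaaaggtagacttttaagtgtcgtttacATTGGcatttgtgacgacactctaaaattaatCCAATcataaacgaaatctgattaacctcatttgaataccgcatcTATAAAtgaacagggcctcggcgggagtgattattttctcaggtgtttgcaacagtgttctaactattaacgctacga
HIST1H2BK: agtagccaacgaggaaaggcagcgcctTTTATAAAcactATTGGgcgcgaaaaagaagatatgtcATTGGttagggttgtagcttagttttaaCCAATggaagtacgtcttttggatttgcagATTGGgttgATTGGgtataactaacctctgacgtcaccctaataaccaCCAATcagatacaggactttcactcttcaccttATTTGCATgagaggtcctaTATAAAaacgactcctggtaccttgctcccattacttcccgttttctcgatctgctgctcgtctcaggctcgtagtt
A window was found for 66 of the 71 genes, and no base in them lay in matches of 2 different motifs. CCAAT occurred in 56 of the 66 histone windows (84.8%) and in 35.7% of 27305 windows of all genes. TATAAA occurred in 44 (66.7%), against 12.0% of all windows. The octamer, known as a hallmark of H2B promoters, occurred in 26 (39.4%), against 1.80% of all windows, and in 14 of 18 H2B and 11 of 16 H2A windows. The H1 box occurred in all 6 H1 windows and in 9 histone windows in all (13.6%), against 5.76% of all windows. These are matches of letters and not measured binding. The windows are not independent, since those of 12 pairs of histone genes, mostly an H2A with an H2B gene, share 253 to 293 bases. HIST1H2AD and HIST1H3D were given the same window. The same site is therefore often counted for more than 1 gene, and the H2A and H2B tallies share many sites.

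Libraries held 9777267 to 13098985 counts in all, which puts a level of 1 CPM (counts-per-million) at 9.78 to 13.1 counts. TRMT13 held 37 and 64 counts in the knockdown libraries, against 143 and 244 in the control libraries, so each library went with its label. Replicates differed beyond sampling noise, with a chi-square per degree of freedom of 44.5 in knockdown and 40.4 in control over genes averaging 20 or more counts, and each was counted as its own sample. Of 6 mesenchymal markers of this line, all tested, edgeR called 0 higher, against 1.03% of all tested genes, and 1 lower, against 1.96%. At an unadjusted p under 0.05 in edgeR, 1 was higher and 3 lower, against 11.5% and 12.5% of all tested genes. DESeq2 called 1 higher and 2 lower, against 3.4% and 5.04%. VIM, the vimentin gene, stood at 1804 and 1845 CPM in knockdown, against 1769 and 1822 CPM in control. The matrix protein gene SPARC, the called one, fell to 34.7 and 30.1 CPM in knockdown, against 75.2 and 73.9 CPM in control (edgeR adjusted p = 0.0476). Of 11 blood cell markers, 6 were at 0, and the list summed to 1.23 and 1.60 CPM in knockdown, against 2.86 and 2.57 CPM in control. The one tested was the myeloid receptor gene CSF1R, with 4 and 6 counts in knockdown, against 17 and 22 in control. PTPRC of the same list, not tested, went the other way, with 7 and 12 counts in knockdown, against 1 and 7 in control. Of 8 luminal epithelial markers, the receptors ESR1 and PGR were at 0, and the list summed to 936.2 and 828.6 CPM in knockdown, against 1150 and 1068 CPM in control. GATA3, a luminal transcription factor gene with the smallest p of that list, had 51 and 56 counts in knockdown, against 81 and 113 in control. Of 7 fibroblast and endothelial markers in the table, DCN was at 0, and the list summed to 50.8 and 33.9 CPM in knockdown, against 76.6 and 61.9 CPM in control. Of these 7, 3 were tested and 1 was called lower, against 1.96% of all tested genes. It was CDH5 of endothelial junctions, which fell to 0 and 2 counts in knockdown, against 63 and 49 in control (edgeR adjusted p = 0.0296). The sums of these 3 lists of other cell types were lower in both knockdown libraries, and their part in the histone values was not tested.

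Most clustered histone genes were barely seen. Of 71, 31 (43.7%) had no count in any library, which allows each up to 0.0647 CPM over the 4 libraries (3 counts, counting error only). Among all 28930 symbols, 35.6% had no count. Another 21 histone genes had 1 to 9 counts in all, and 19 (26.8%) had 10 or more, against 50.6% of all symbols. The low-count filter passed 8 of them. HIST1H3H and HIST1H4H reached its level in both knockdown libraries, against 0 and 1 of the control libraries, and HIST2H2BE in 1 knockdown library and both control libraries. The filter asks for 2 libraries, so HIST1H3H and HIST1H4H would not have passed it without the knockdown libraries. HIST2H2BE would not have passed without the control libraries. With no filter their log2 fold changes were close to those with it, at 0.99 for HIST1H3H, 1.23 for HIST1H4H and −0.21 for HIST2H2BE. The 3 genes with the most counts, HIST1H2BK, HIST1H1C and HIST1H2AC, took 30.3%, 23.8% and 17.8% of all counts of the 71 genes.

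**Figure D1:**
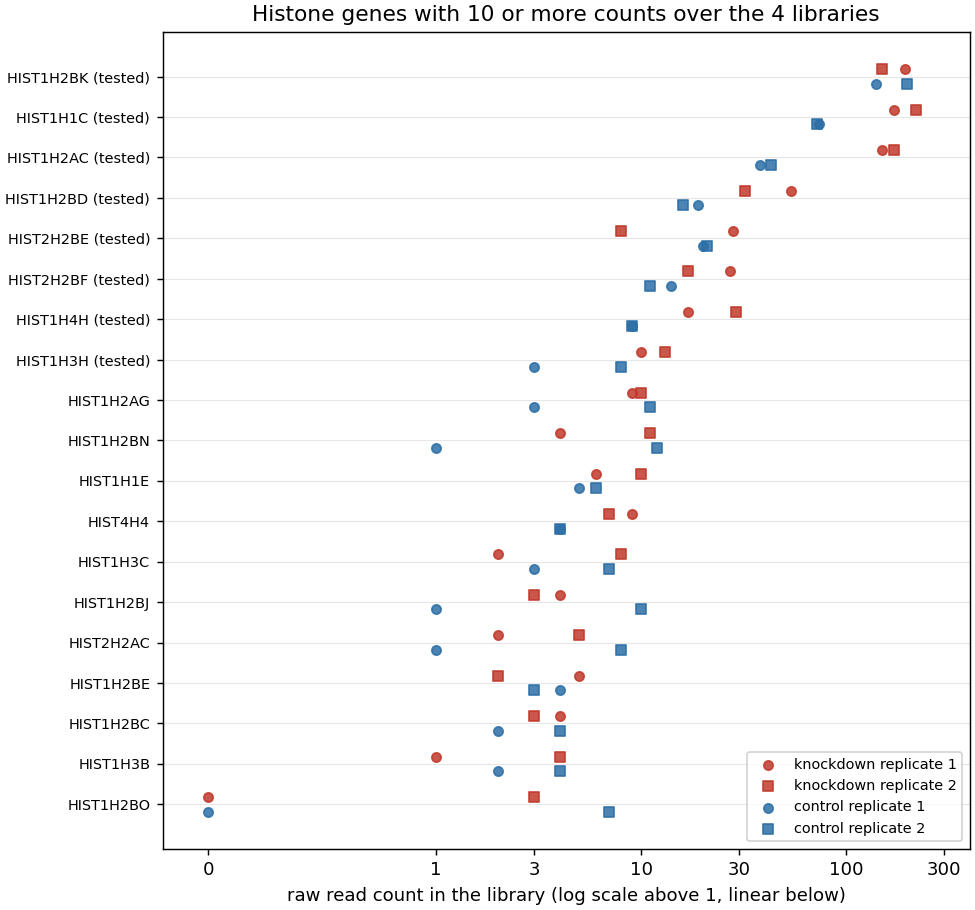
Raw read counts of the 19 clustered histone genes with 10 or more counts over the 4 libraries, on a scale that is logarithmic above 1. Red symbols are knockdown and blue symbols control libraries, circles replicate 1 and squares replicate 2. HIST1H2AC and HIST1H1C lie higher in both knockdown libraries, and HIST1H2BK overlaps between the groups.

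HIST1H2AC, which encodes a core H2A, was the one of the 8 tested histone genes that passed the threshold in edgeR, and it rose in the knockdown. It had 149 and 171 counts in the knockdown libraries, against 38 and 43 in the control libraries. Both knockdown libraries stood far above both control libraries, and replicates lay close together. The log2 fold change was 1.89 (SE 0.32), with an adjusted p of 0.0403 in edgeR's quasi-likelihood test (Benjamini-Hochberg over all tested genes). In that fit 1 of the 8 tested histone genes was higher, against 1.03% of 13022 tested genes, and 0 were lower, against 1.96%. At an unadjusted p under 0.05, 3 of the 8 were higher, against 11.5% of all tested genes, and 0 lower, against 12.5%. The 3 include HIST1H4H. DESeq2, which gave an adjusted p to 9 histone genes, called 2 of them higher (HIST1H2AC and HIST1H1C), against 3.4% of 13371 genes, and 0 lower, against 5.04%. Of the 8, 5 had both knockdown libraries above both control libraries, against 27.5% of all tested genes, and 0 had both below, against 26.8%. These genes were listed with their values known, and the 5 include HIST1H3H and HIST1H4H. Of all 19 histone genes with 10 or more counts, 7 had both knockdown libraries above both control libraries. In 0 of the 19 were both below, and 12 overlapped. The shares given are of tested genes, and 11 of the 19 were not tested.

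HIST1H1C, which encodes the linker histone H1.2, had 171 and 218 counts in knockdown, against 74 and 72 in control. Both knockdown libraries were the higher ones. It averaged 16.3 ± 0.048 CPM in knockdown and 6.65 ± 1.52 CPM in control (SD, n = 2 each). Its log2 fold change of 1.30 (SE 0.31) did not pass the threshold in edgeR (adjusted p = 0.0737), while it passed in DESeq2 (adjusted p = 0.0291) and in edgeR with no filter on low counts (adjusted p = 0.00779). HIST1H1E, the H1.4 gene, had 6 and 10 counts in knockdown, against 5 and 6 in control. The depth-scaled ratio was 1.39, with a 95% exact binomial interval of 0.605 to 3.31 that covers counting error only, so this depth could not show a difference. The other 4 H1 genes, with testis-specific HIST1H1T among them, were at 0 in every library.

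**Figure D2:**
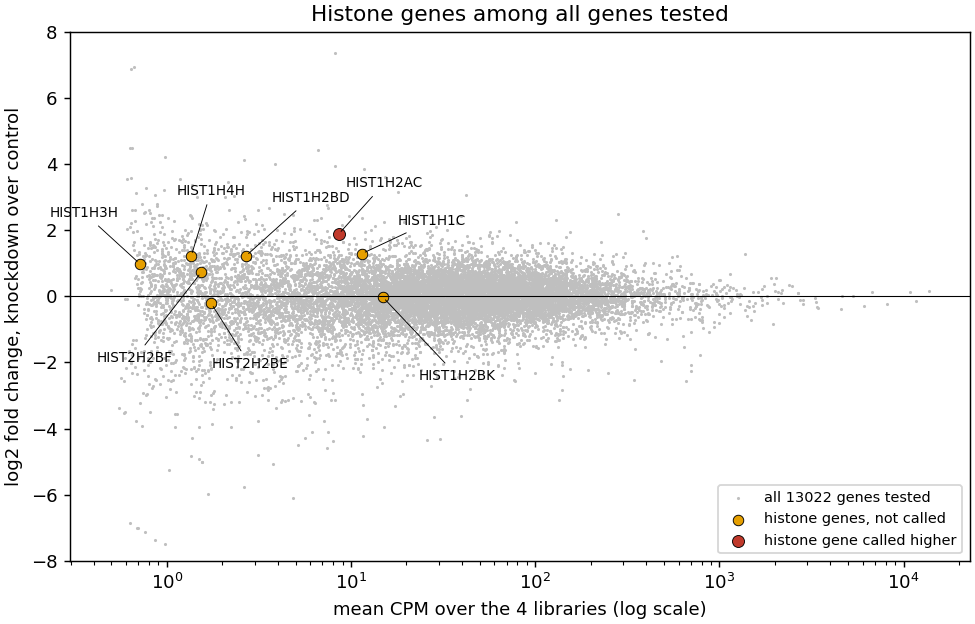
Log2 fold change of knockdown over control against mean CPM over the 4 libraries (logarithmic axis), for 13022 tested genes in grey and the 8 tested histone genes in colour. HIST1H2AC, in red at 1.89, is the called one, and HIST1H2BK lies at −0.02.

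HIST1H2BK, an H2B gene, had the most counts of the 71 and did not separate the groups. It had 193 and 150 counts in knockdown, against 140 and 199 in control. The knockdown libraries lay on either side of the controls after scaling, at 18.4 and 11.2 CPM, against 14.6 and 15.4 CPM in control. The log2 fold change of HIST1H2BK was −0.02 (SE 0.33, edgeR adjusted p = 0.975), and its sign turned without knockdown replicate 2 (0.29) or control replicate 2 (0.01). Of the 50-base words in its annotated transcript of 381 bases, 74.1% also occur in another gene, most often in H2BFS, which had 0 and 0 counts in knockdown, against 0 and 1 in control. Reads of such copies may be lost or shared, and how they were counted is not given in the sources used here.

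HIST1H2BD, another H2B gene, had 54 and 32 counts in knockdown, against 19 and 16 in control. The groups did not overlap, but the knockdown libraries lay apart from each other. Its log2 fold change was 1.23 (SE 0.53, edgeR adjusted p = 0.218), and 0.59 without knockdown replicate 1. GENCODE gives it a short transcript with the stem-loop printed above and a longer one, of 789 bases, without it. HIST2H2BF, from the HIST2 cluster, had 27 and 17 counts in knockdown, against 14 and 11 in control, and its groups overlapped after scaling. The log2 fold change of HIST2H2BF was 0.73 (SE 0.56, edgeR adjusted p = 0.468), and 25.7% of its 50-base words occur in other genes. HIST2H2BE, an H2B gene whose annotated transcript runs 1729 bases past the stem-loop, had 28 and 8 counts in knockdown, against 20 and 21 in control. One knockdown library was above both controls and the other below both. Its log2 fold change was −0.21 (SE 0.69, edgeR adjusted p = 0.885), with −1.60 without knockdown replicate 1 and 0.53 without knockdown replicate 2.

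The other H2B genes with 10 or more counts were HIST1H2BN, HIST1H2BJ, HIST1H2BE, HIST1H2BC and HIST1H2BO. HIST1H2BN had 4 and 11 counts in knockdown, against 1 and 12 in control. HIST1H2BJ had 4 and 3 counts in knockdown, against 1 and 10 in control. HIST1H2BO had 0 and 3 counts in knockdown, against 0 and 7 in control. In none of the 5 did the groups separate, and every counting interval of the ratio held 1. HIST1H2BE had 5 and 2 counts in knockdown, against 4 and 3 in control.

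HIST1H2AC and HIST1H2BC lie head to head on opposite strands, and their start windows share 255 bases, so the window printed for HIST1H2AC is mostly also that of HIST1H2BC. HIST1H2BC had 4 and 3 counts in knockdown, against 2 and 4 in control, while its partner had 149 and 171 in knockdown, against 38 and 43 in control. The depth-scaled ratio of HIST1H2BC was 1.11 (95% exact binomial interval 0.320 to 4.01) and that of HIST1H2AC 3.77 (2.95 to 4.87). The intervals overlap, and the difference between the partners was not tested. Windows overlapped in this way in 12 pairs of histone genes. In the pair of HIST2H2BE with the H2A gene HIST2H2AC, HIST2H2AC had 2 and 5 counts in knockdown, against 1 and 8 in control. In the pair of HIST1H2BJ with HIST1H2AG, HIST1H2AG had 9 and 10 counts in knockdown, against 3 and 11 in control, with 1 control library below both knockdown libraries and the other close to them.

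H3 and H4 genes held few counts. HIST1H4H, an H4 gene with annotated transcripts up to 1655 bases past the stem-loop, had 17 and 29 counts in knockdown, against 9 and 9 in control. The groups did not overlap. Its log2 fold change was 1.22 (SE 0.48, edgeR adjusted p = 0.189). HIST4H4, the H4 gene on chromosome 12, had 9 and 7 counts in knockdown, against 4 and 4 in control, a ratio of 1.91 with a 95% exact binomial interval of 0.771 to 5.15. HIST1H3H, an H3 gene, had 10 and 13 counts in knockdown, against 3 and 8 in control (log2 fold change 0.99, SE 0.59, edgeR adjusted p = 0.356; 1.59 without control replicate 2). The H3 gene HIST1H3C had 2 and 8 counts in knockdown, against 3 and 7 in control. HIST1H3B, another H3 gene, had 1 and 4 counts in knockdown, against 2 and 4 in control. In both the groups overlapped. The testis histone gene HIST3H3 had no count.

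To compare histone genes without any scaling between libraries, each count was divided by the HIST1H2BK count of the same library, a divisor chosen for its depth after the counts were seen. HIST1H2AC stood at 0.772 and 1.14 in knockdown, against 0.271 and 0.216 in control. HIST1H1C stood at 0.886 and 1.45 in knockdown, against 0.529 and 0.362 in control. HIST1H2BD stood at 0.280 and 0.213 in knockdown, against 0.136 and 0.0804 in control. Of the 7 genes compared, both knockdown ratios were above both control ratios in 6, the exception being HIST2H2BE, against 23.6% of 13021 tested genes divided in the same way. The 6 include HIST1H3H and HIST1H4H, which would not have passed the low-count filter without the knockdown libraries. An exact two-sided permutation test of 2 libraries against 2 cannot go below 0.333, the value for those 6. All 7 share the divisor, which was itself lower in knockdown replicate 2.

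**Figure D3:**
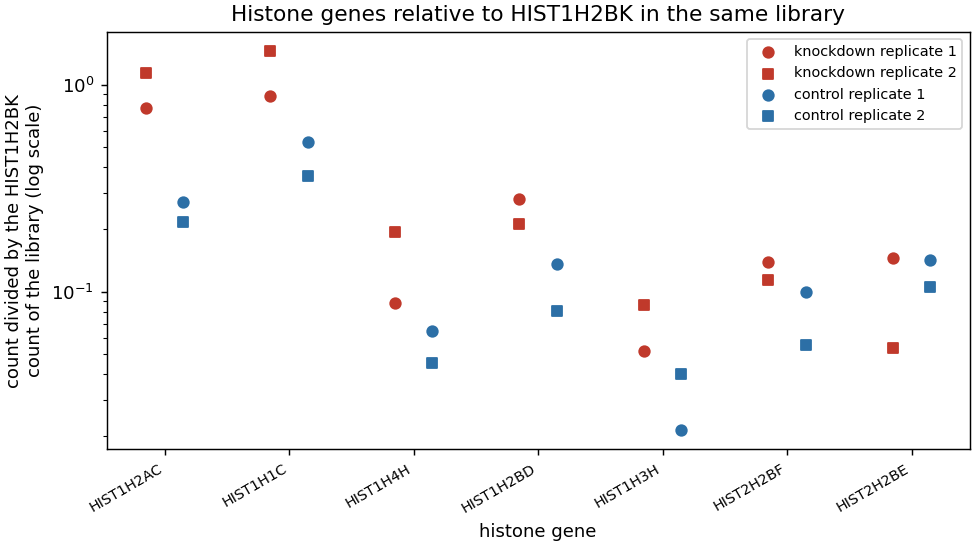
Counts of the 7 other tested histone genes divided by the HIST1H2BK count of the same library (logarithmic axis), with knockdown in red left of control in blue, circles for replicate 1 and squares for replicate 2. The knockdown ratios of HIST1H2AC (0.772 and 1.14) lie above its control ratios (0.271 and 0.216), and those of HIST2H2BE span its controls.

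Summed over all 71 genes, the counts were 702 and 725 in the knockdown libraries, against 353 and 471 in the control libraries. As CPM of the total counts this was 66.2 and 55.3 in knockdown, against 36.1 and 36.6 in control, a ratio of means of 1.67. HIST1H2AC and HIST1H1C carry most of that difference. Without them the sums were 36.02 and 25.7 CPM in knockdown, against 24.6 and 27.7 in control, which overlap (ratio 1.18). In the 63 genes below the filter the sums were 4.997 and 6.64 CPM in knockdown, against 3.68 and 7.16 in control (ratio 1.07).

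By class, H1 summed to 16.7 and 17.4 CPM in knockdown, against 8.08 and 6.07 in control, nearly all from HIST1H1C. H2A summed to 15.2 and 14.96 CPM in knockdown, against 4.50 and 5.37 in control. Without HIST1H2AC the other 16 H2A genes summed to 1.13 and 1.91 CPM in knockdown, against 0.614 and 2.02 in control, which overlap. H2B summed to 30.2 and 17.6 CPM in knockdown, against 20.6 and 22.1 in control, with the groups overlapping. H3 summed to 1.51 and 2.14 CPM in knockdown, against 1.13 and 1.79 in control. H4 summed to 2.64 and 3.28 CPM in knockdown, against 1.84 and 1.32 in control. H4 did not overlap between the groups, on 71 counts in knockdown against 35 in control. HIST1H4H held 46 of the 71 and 18 of the 35. Without HIST1H4H the ratio of means fell from 1.87 to 1.36, on 25 counts in knockdown against 17 in control. Those sums were 1.04 and 1.07 CPM in knockdown, against 0.921 and 0.622 in control. No test was made of the sums.

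**Figure D4:**
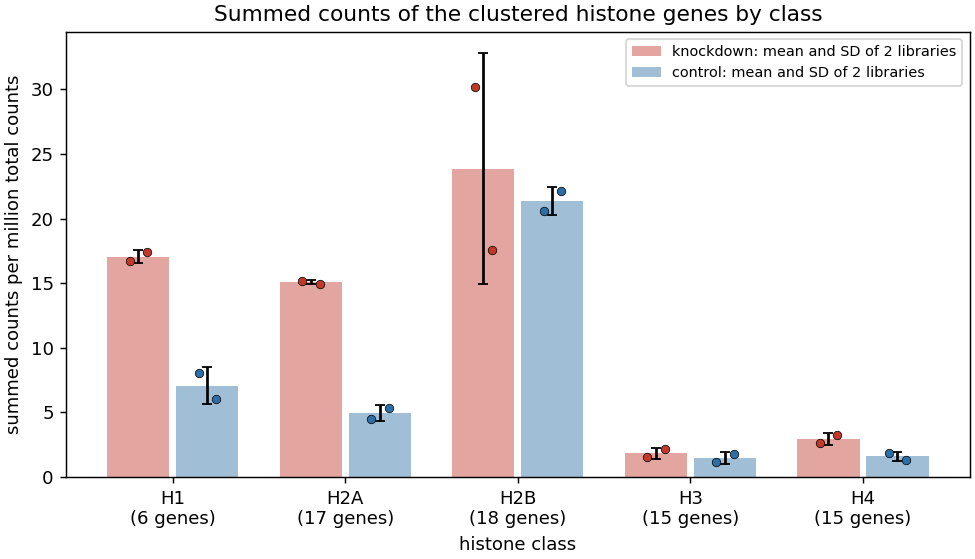
Summed CPM of total counts for each histone class, knockdown in red left of control in blue. Bars are means of 2 libraries, whiskers the SD and points single libraries. H1 and H2A stand apart between the groups (17.0 and 15.1 in knockdown, against 7.07 and 4.93 in control), while H2B overlaps.

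How far annotated transcripts reach was set beside the counts, with no test. Of 22 genes with a GENCODE transcript that runs at least 100 bases past the stem-loop, 10 (45.5%) had 10 or more counts, against 9 of 49 others (18.4%). The 49 include the 40 genes with no stem-loop match, whose reach past it is not known from these models. In summed counts the order was the other way, with 768 counts in the 22 genes against 1483 in the 49, which include HIST1H2BK and HIST1H1C. A list of 12 genes named from background knowledge for polyadenylated transcripts, written with earlier results of these libraries known, held 2010 of the 2251 histone counts. These 12 summed to 61.9 and 48.9 CPM in knockdown, against 33.0 and 30.3 in control. The other 59 summed to 4.24 and 6.49 CPM in knockdown, against 3.07 and 6.30 in control. In the 59 the lower value in each group was replicate 1. The sum of the 12 was higher in both knockdown libraries. Of the 10 among them with 10 or more counts, 5 had both knockdown libraries above both control libraries, and 5 overlapped. Among all tested genes, 27.5% had both knockdown libraries above both control libraries and 26.8% had both below. Those shares are of genes that passed the low-count filter, while 3 of the 10 did not pass it. The S phase list below was also lower in replicate 1 of each group, and its part in these values was not tested.

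Sequence shared between copies was set beside the counts in the same way. Of 16 genes with at least 50% of their 50-base words in another gene, 10 (62.5%) had no count, against 21 of 55 others (38.2%). The relation did not run one way, since 15 of the 30 genes with no shared word also had no count, and HIST1H2BK, with the most counts, shared most of its words. HIST2H2AA3 and HIST2H2AA4, a pair of copies that share 100% and 97.1% of their words with other genes, were at 0 in every library, as were HIST2H3A and HIST2H3C, each at 100%. HIST1H2AC shared 0.421% of its words, and HIST1H1C none. A count of 0 for a gene of the first kind does not separate a silent gene from reads that fit several copies.

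**Figure D5:**
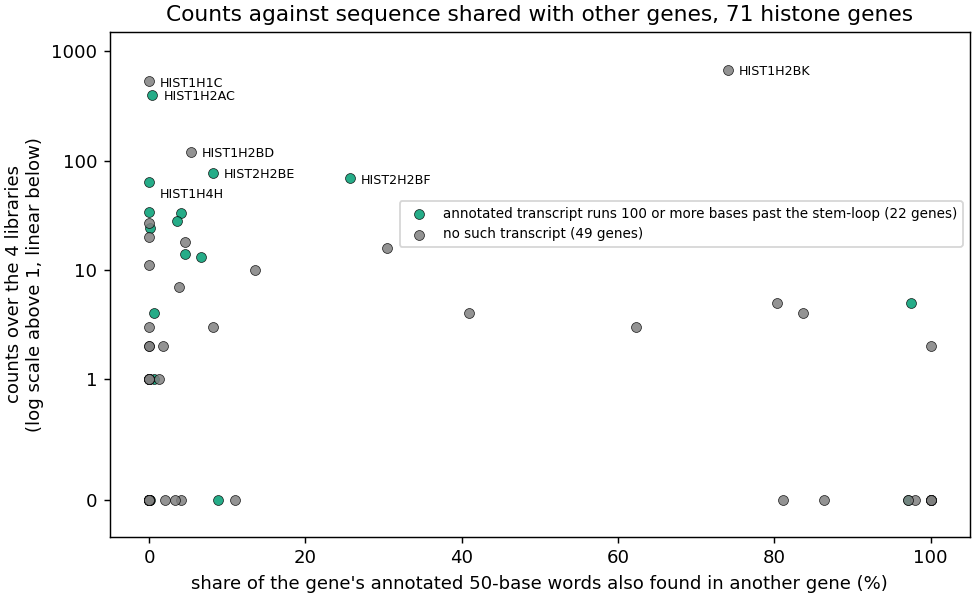
Counts over the 4 libraries (logarithmic above 1) against the share of a gene's annotated 50-base words that occur in another gene, for the 71 histone genes. Green genes have an annotated transcript that runs at least 100 bases past the stem-loop. HIST1H2BK, at 74.1%, is the one gene with many counts and mostly shared words.

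Genes that make, carry or replace these histones were set beside them by counts. Among 26 genes of histone mRNA transcription and processing, edgeR called 0 higher and 0 lower, against 1.03% and 1.96% of all tested genes. At an unadjusted p under 0.05, 3 were higher (11.5%, against 11.5% of all tested genes) and 2 lower (7.69%, against 12.5%). DESeq2 called 1 higher (against 3.4% of all genes) and 0 lower (against 5.04%). Their median log2 fold change was −0.10, against 0.01 over all tested genes. CTIF, a factor in the translation of capped mRNAs that also serves histone mRNAs, averaged 62.4 ± 21.0 CPM in knockdown and 28.9 ± 4.89 CPM in control (SD, n = 2 each; edgeR adjusted p = 0.0998). ZNF473, a zinc finger protein of the histone processing complex, averaged 5.13 ± 0.26 CPM in knockdown and 10.3 ± 0.29 CPM in control (SD, n = 2 each; edgeR adjusted p = 0.119). SLBP and NPAT, the cyclin E-CDK2 target that switches on histone genes, were looked up for their roles after their values were seen. SLBP stood at 29.4 and 34.6 CPM in knockdown, against 31.8 and 41.2 CPM in control, and NPAT at 14.3 and 27.5 CPM in knockdown, against 23.6 and 31.6 CPM in control. Both overlapped between the groups.

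Of 20 histone variant genes outside the clusters, most of which are made outside S phase too, 11 were tested (median log2 fold change −0.16). Of the 11, edgeR called 1 higher, against 1.03% of all tested genes, and 0 lower, against 1.96%. At an unadjusted p under 0.05 edgeR had 1 of the 11 higher, against 11.5% of all tested genes, and 2 lower, against 12.5%. DESeq2 called 1 higher, against 3.4%, and 2 lower, against 5.04%. The gene that rose was H2AFJ, which encodes the H2A variant H2A.J. It had 617 and 560 counts in knockdown, against 147 and 229 in control, so both knockdown libraries were well above both controls. Its log2 fold change was 1.60 (SE 0.28, edgeR adjusted p = 0.0415). H2AFV, an H2A.Z gene, averaged 72.1 ± 23.0 CPM in knockdown and 184.9 ± 34.4 CPM in control (SD, n = 2 each; edgeR adjusted p = 0.0594).

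Of 27 histone chaperone genes, edgeR called 0 higher and 0 lower, against 1.03% and 1.96% of all tested genes (median log2 fold change −0.05). DESeq2 also called 0 higher and 0 lower, against 3.4% and 5.04%. At an unadjusted p under 0.05 in edgeR, 1 was higher and 0 lower, against 11.5% and 12.5% of all tested genes. The one at that level was SUPT16H, a subunit of the FACT chaperone, at 352.1 ± 23.4 CPM in knockdown and 234.5 ± 35.99 CPM in control (SD, n = 2 each; edgeR adjusted p = 0.168). Of 34 S phase and DNA replication genes, edgeR called 0 higher and 0 lower, against 1.03% and 1.96% of all tested genes. Of the 34, 33 had a negative log2 fold change (median −0.77). There were 0 higher and 9 lower (26.5%) at an unadjusted p under 0.05, against 11.5% and 12.5% of all tested genes. DESeq2 called 0 higher and 7 lower (20.6%), against 3.4% and 5.04%. Their summed level was 808.3 and 1369 CPM in knockdown, against 1275 and 2460 CPM in control, the lower value of each group being replicate 1. POLE, the catalytic subunit of DNA polymerase epsilon, averaged 35.7 ± 10.003 CPM in knockdown and 79.2 ± 15.5 CPM in control (SD, n = 2 each; edgeR adjusted p = 0.0803).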

How the data were processed

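The authors deposited raw read counts per gene symbol for 4 libraries, whole numbers with no unassigned entry. Per the submitters' processing notes, cutadapt, STAR 2.5.2b, HTSeq 0.6.1 and limma were used, with the builds hg19 and GRCh37. The annotation, strand setting and treatment of reads that fit several places are named nowhere in those notes or labels. Overlapping or antisense genes and near-identical copies therefore cannot be kept apart.

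Counts were tested in edgeR 4.0.16 (R 4.3.3) with TMM scaling, filterByExpr (minimum count 10, minimum total 15, about 0.853 CPM in 2 libraries) and its quasi-likelihood test, with the group as the only term. A gene was called changed where the p adjusted by Benjamini-Hochberg over all 13022 tested genes was under 0.05. CPM in tests is TMM-scaled, while sums are CPM of the total counts. Ratios of low counts carry exact binomial intervals at 95%, for counting error only. Alternatives were DESeq2 1.42.0, other scalings and filters, a replicate block and leaving out each library. No set test was run.

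Stem-loops, 50-base words (one strand, all transcripts of a gene against all other genes) and transcript reach came from GENCODE release 29, and start regions from RefSeq (GRCh38.p14). Stem-loops were found with a pattern of the histone stem-loop consensus. Every tested histone gene is named, as is every other with 10 or more counts, and of each other list the called genes or, where none was called, up to 2 with the smallest p. H2AFV, SLBP, NPAT, VIM and PTPRC were added outside that rule. The genes and lists were chosen with earlier results of these data known.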

Additional observations from a re-analysis of the deposited data

How the results depend on the processing

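The rise of HIST1H2AC kept its call in all 11 alternatives (log2 fold change 1.76 to 2.02, adjusted p at most 0.0474). Of 86 alternative values over the 8 tested histone genes, 78 kept their direction and side of the threshold, 5 passed it and 3 turned sign. The count of changed genes was 389, against 1949 with no filter on low counts, 1129 with DESeq2 and 678 to 935 when leaving out 1 library. The count of changed histone genes was 1 of 8 tested, higher, against 1.03% of all tested genes. With no filter it was 2 of 40, both higher, where 826 of 18632 genes were called higher and 10.5% in either direction. With DESeq2 it was 2 of 9, both higher, against 3.4% of 13371 genes. HIST1H1C joined in both. HIST1H2BK ran from −0.41 to 0.29 and HIST2H2BE from −1.60 to 0.53 over the fits that left out 1 library, each turning positive without knockdown replicate 2 (0.29 and 0.53), and HIST1H2BK also without control replicate 2 (0.01). The cause was not tested.

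Whether equal replicate numbers pair the libraries is not stated. Their deviations from the group means correlated at 0.639 across genes, which are not independent. With the replicate block 5227 of 13022 genes (40.1%) were called, 2517 of them higher. Of the 8 tested histone genes 4 were called, all higher: HIST1H2AC, HIST1H1C, HIST1H2BD (edgeR adjusted p = 0.0108) and HIST1H4H (edgeR adjusted p = 0.0327).

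The summed ratio of 1.67 was 1.63 to 1.67 under the other scalings and 1.52 to 1.82 without 1 library. It was 2.14 without HIST1H2BK and 1.07 without the genes that passed the filter, and, in alternatives added after the data were seen, 1.44 without HIST1H2AC and 1.18 without HIST1H2AC and HIST1H1C. Depth limits most of these genes: 63 of 71 were left out by the low-count filter, 31 of them with no count, and intervals of genes near 10 counts span several fold.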
